A study of Mus musculus with 12 samples.

Results

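The genes described here are 35 genes of fatty acid oxidation, chosen by symbol from the 24619 genes of the deposited count table. They comprise 31 enzymes and carriers of the mitochondrial and peroxisomal pathways and 4 regulators of their transcription (Ppara, Ppard, Ppargc1a and Ppargc1b). Of the 35, 33 passed the filter on low counts that left 14400 genes for testing, and the other two, Decr1 and Ppara, are described by their counts alone.

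Fatty acid oxidation shortens acyl chains by steps of dehydrogenation, hydration, a further dehydrogenation and thiolysis, each round releasing acetyl-CoA and electrons. Long chains enter mitochondria as carnitine esters, the electrons of the opening step pass through the electron transfer flavoprotein to the respiratory chain, and very long or branched chains are shortened in peroxisomes. The PPAR nuclear receptors, bound by fatty acids, and the PGC-1 coactivators switch these genes on, and the adult heart is known for drawing most of its energy from this pathway.

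RNA was sequenced from 12 libraries of mouse cells that the labels call primary cardiac fibroblasts, starved for 12 h and then kept for 24 h in conditioned medium, which is medium taken from other cells with what they released. The donor cells were adipocytes carrying a lentivirus, and 3 libraries formed each of 4 groups. VEC_CM received medium of adipocytes with vector virus, and OE_CM medium of adipocytes with a virus overexpressing the human microRNA hsa-miR-548ay. TGF_VEC_CM and TGF_KD_CM received the growth factor TGF-beta1, together with medium of adipocytes carrying vector virus or a virus inhibiting the microRNA. No group went without adipocyte medium or without lentivirus in the adipocytes, so the oxidation genes have no baseline in medium of uninfected cells. In OE_CM and TGF_KD_CM, the treatment given for replicate 2 reads miR-549ay and that for replicate 3 miR-550ay, so the groups follow the titles. Whether replicates are separate cultures is not stated in the labels, so p-values measure the spread among libraries alone, possibly technical. In bulk RNA, fewer cells of a type and less RNA per cell cannot be told apart.

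Library totals lay between 33379207 and 37226153 counts, and 3 counts, the floor used here, stood for at most 0.0939 CPM in any library. CPM here are counts normalized by depth and TMM factors. Of 10 fibroblast markers in the table, Col1a1, Col1a2, Vim, Ddr2 and Pdgfra were abundant, but decorin (Dcn, 0.137 ± 0.0475 CPM in VEC_CM), lumican (Lum, 0.00911 ± 0.0158) and Thy1 (0.246 ± 0.144) lay at or near the floor in every group, which goes against the labelled cell type. Markers of other cells also moved with the groups, and their part in the results below was not tested. The 5 mural markers summed to between 555 and 577 CPM in VEC_CM, between 875 and 878 in OE_CM, between 784 and 807 in TGF_VEC_CM and between 600.3 and 615 in TGF_KD_CM, nearly all of it Cspg4. The 8 adipocyte markers summed to 265 to 279, 97.6 to 102, 187 to 198 and 152 to 163 CPM in the same order, mostly Fabp4, with Adipoq at most 0.735 CPM. Another of them, Cidec, went the other way, with 7.92 ± 0.716 CPM in VEC_CM, 13.2 ± 0.994 in OE_CM, 11.2 ± 0.403 in TGF_VEC_CM and 17.0 ± 1.45 in TGF_KD_CM. The 7 cardiomyocyte markers summed to 70.03 to 75.2, 163 to 167, 105 to 116 and 97.2 to 104 CPM, carried by Tnnt2, while Myh6 stayed at or below 0.136 CPM. The 7 leukocyte markers summed to 35.9 to 38.7, 16.7 to 29.0, 29.1 to 32.0 and 23.1 to 25.5 CPM.

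Levels between genes were compared per length, as the authors' FPKM (counts scaled by gene length and library total), over all 12 libraries. Hadha, the alpha subunit of the mitochondrial trifunctional protein, stood highest with a mean of 105 FPKM (97.5 to 115). Etfb, the beta subunit of the electron transfer flavoprotein, had 85.5 FPKM (70.0 to 94.8) and Echs1, the short-chain enoyl-CoA hydratase, 85.1 FPKM (74.3 to 107). The ranges of Etfb and Echs1 overlapped over all libraries but not within any group. Etfb was the higher in VEC_CM and TGF_VEC_CM, and Echs1 in OE_CM and TGF_KD_CM. The next pair, Cpt1a with 70.5 FPKM (61.8 to 81.7) and Acadl with 69.0 FPKM (58.9 to 79.2), also overlapped. In the middle of the order stood Acadm with 37.9 FPKM (23.6 to 51.4), Acaa2 with 28.6 FPKM (13.8 to 37.2) and Cpt2 with 18.4 FPKM (13.5 to 21.8). The lowest tested members were Ppargc1b with 1.63 FPKM (1.28 to 1.97), Ppargc1a with 0.492 FPKM (0.127 to 0.679) and Ehhadh with 0.422 FPKM (0.188 to 0.627), the last pair again overlapping.

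A few of these places depend on the gene length behind the FPKM. For Etfa the deposited values imply a length of 9685 bases, against 1392 in the GENCODE transcript marked as principal, and for Hadhb 5922 against 2048. Divided by the principal transcript, which 28 of the 35 genes have, Etfa moved from 11.9 FPKM to 82.8 on the same scale, next to its partner Etfb with 86.6. Likewise Hadhb moved from 13.3 to 38.3 and Hadha from 105 to 71.3. Ppargc1a, with an implied 13011 bases against 6464, moved from 0.492 to 0.990 (0.255 to 1.37). Ehhadh moved only from 0.422 to 0.427 (0.190 to 0.634), so these low ranges still overlapped over all libraries. The low end of the Ppargc1a range came from OE_CM, with 0.127 to 0.176 FPKM against 0.489 to 0.679 in the other groups. Comparisons of 1 gene between groups do not use a length. For Etfa, Ppargc1a and Ppargc1b, though, the implied 9685, 13011 and 10866 bases exceed all GENCODE exon bases of the gene (1835, 6592 and 3990). Which bases were counted is not given. The counts of these genes, and so their comparisons and the division above, may therefore take in other sequence.

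Of the PPAR receptors among the members, Ppara was nearly absent and Ppard clearly present. Ppara, the receptor that drives oxidation in liver and heart (NCBI gene 19013, chromosome 15 from 85734910 to 85806851 on the plus strand), had 1 count in all 12 libraries together, in TGF_VEC_CM. Its relative Ppard (NCBI gene 19015, chromosome 17 from 28232754 to 28301469 on the plus strand) had 15984 counts. Decr1, the 2,4-dienoyl-CoA reductase needed for polyunsaturated chains, had 39 counts in the 12 libraries, between 0 and 9 each, so its level was at or near the floor and no difference between groups was detectable.

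The comparison of OE_CM with VEC_CM asks what medium from adipocytes that overexpress the microRNA does to the fibroblasts. Most of the pathway was lower: of 33 tested members 24 fell, 3 rose (Acad9, Acadvl and Echs1) and 6 did not pass, by edgeR's quasi-likelihood test at an adjusted p below 0.05. Among all 14400 genes, 25.7% were lower and 28.4% higher in that comparison. At least 1.5-fold, 6 members fell (Ppargc1a, Ehhadh, Acaa2, Acadm, Acadsb and Ech1) and none rose, against 9.40% of all genes lower and 5.0% higher. The median log2 fold change was -0.25 over the members and -0.01 over all genes. Upper-quartile scaling moved every gene down alike, and the members' median lay 0.24 below that of all genes under either scaling (-0.33 and -0.095 with upper-quartile factors). With that shift 28 members fell and 1 rose, and all genes split into 5059 lower and 2798 higher, against 3695 lower and 4083 higher with TMM. There Acad9 and Acadvl lost their calls and Acad10, Etfdh, Hsd17b4 and Ppard were called lower. The CPM of the 31 enzymes summed to 2349 to 2407 in VEC_CM and to 2086 to 2099.9 in OE_CM, with no overlap.

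Inhibition of the microRNA was tested in the presence of TGF-beta1, TGF_KD_CM against TGF_VEC_CM. Here 11 members rose, 6 fell and 16 did not pass, where 23.0% of all genes rose and 20.2% fell. The rises were led by the thioesterase Acot2, the hydratase Echs1 and the isomerase Ech1. No member reached 1.5-fold at any p in edgeR, DESeq2 or limma with all libraries and the filter on low counts. Of all genes, 3.41% were higher and 4.60% lower by that much. Without TGF_VEC_CM replicate 1, Acot2 did reach 1.5-fold, at 0.60 on the log2 scale. The median was 0.04 over the members and within 0.01 of 0 over all genes, and the enzymes summed to 2311 to 2341 CPM in TGF_VEC_CM and to 2423 to 2487 in TGF_KD_CM.

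TGF_VEC_CM against VEC_CM sets TGF-beta1 with vector medium against vector medium. The labels name no batch, so any other difference between these groups cannot be told apart from TGF-beta1. Members moved both ways: 8 rose, 10 fell and 15 did not pass, beside 28.9% of all genes higher and 29.4% lower. Acadvl rose most and Acadsb fell most. With all libraries and the filter on low counts, none reached 1.5-fold at any p in those tools, against 11.3% of all genes higher and 5.38% lower. Acadsb passed 1.5-fold lower with no filter on low counts (-0.59) and without TGF_VEC_CM replicate 3 (-0.61), and Ehhadh without TGF_VEC_CM replicate 1 (-0.79, adjusted p = 0.0319). This comparison shares its VEC_CM libraries with the OE_CM comparison and its TGF_VEC_CM libraries with the TGF_KD_CM comparison, so values of a gene in these pairs are not independent.

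**Figure D1:**
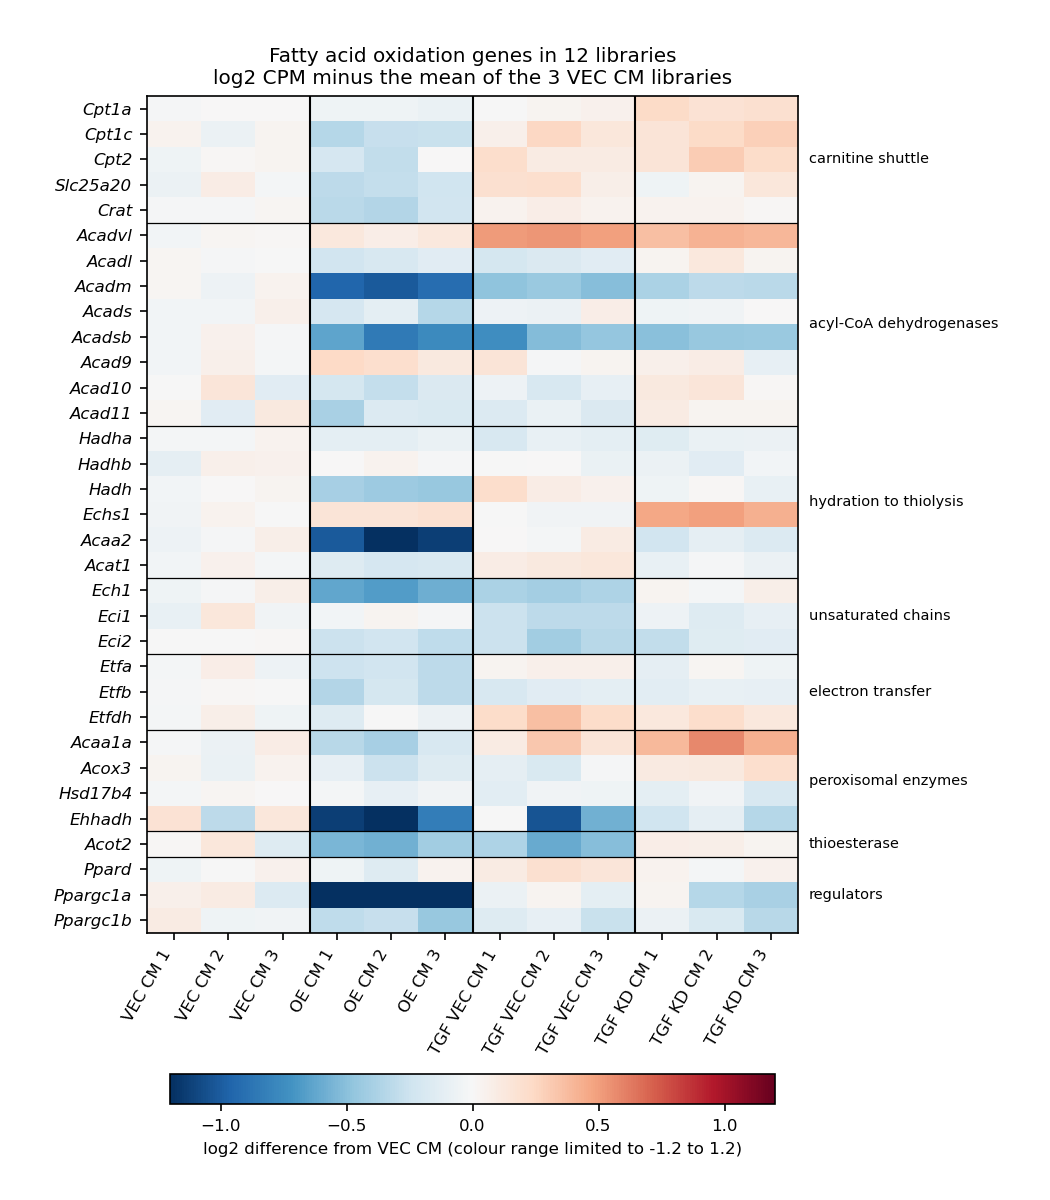
Colour map of the 33 tested genes (rows, by role) in the 12 libraries (columns), as log2 CPM minus the mean of the 3 VEC_CM libraries, with colours limited to -1.2 and 1.2. Most rows are blue in the OE_CM columns, with Ppargc1a, Acaa2, Ehhadh and Acadm darkest, while Acadvl is red in the TGF_VEC_CM and TGF_KD_CM columns and Echs1 in TGF_KD_CM.

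Among the regulators, the coactivator PGC-1alpha, encoded by Ppargc1a (NCBI gene 19017, chromosome 5 from 51454249 to 52115853 on the minus strand), had the largest change of any member. Ppargc1a stood at 8.60, 8.82 and 7.36 CPM in the 3 VEC_CM libraries, at 1.95, 2.42 and 1.72 in OE_CM, at 7.87, 8.44 and 7.57 in TGF_VEC_CM and at 8.43, 6.51 and 6.28 in TGF_KD_CM. All OE_CM libraries lay below every other library, and the 3 other groups overlapped. It was 4.06-fold lower in OE_CM than in VEC_CM, with a log2 fold change of -2.02 ± 0.145 (SE), adjusted p = 1.5e-19. In TGF_KD_CM it did not pass, at -0.17 ± 0.122 (SE), adjusted p = 0.268, but without TGF_KD_CM replicate 1 the value was -0.33 with an adjusted p of 0.0447. It did not pass in TGF_VEC_CM against VEC_CM either (-0.053 ± 0.120 (SE), adjusted p = 0.727).

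PGC-1beta, encoded by Ppargc1b, fell less. Ppargc1b stood at 21.3, 19.2 and 19.3 CPM in the 3 VEC_CM libraries, at 16.1, 16.4 and 14.6 in OE_CM, at 17.9, 18.6 and 16.5 in TGF_VEC_CM and at 19.0, 17.6 and 15.8 in TGF_KD_CM. The OE_CM libraries were all below the VEC_CM libraries, and the log2 fold change was -0.34 ± 0.0763 (SE), adjusted p = 9.68e-05. In TGF_VEC_CM it was -0.17 ± 0.0747 (SE), adjusted p = 0.0395, and that call did not survive removal of replicate 1 or 3 of either group (adjusted p from 0.0566 to 0.262), and DESeq2 gave an adjusted p of 0.0715. Ppard stood at 34.9, 36.2 and 37.6 CPM in the 3 VEC_CM libraries, at 34.9, 32.6 and 37.2 in OE_CM, at 38.9, 41.5 and 40.0 in TGF_VEC_CM and at 37.3, 35.8 and 37.5 in TGF_KD_CM. Ppard, which encodes PPARdelta, rose in TGF_VEC_CM against VEC_CM (0.15 ± 0.0530 (SE), adjusted p = 0.0141), with an adjusted p of 0.0521 without replicate 1 of VEC_CM and 0.051 without replicate 2 of TGF_VEC_CM. Its groups overlapped in OE_CM against VEC_CM, where the log2 fold change was -0.055 ± 0.0541 (SE), adjusted p = 0.407. Ppargc1b stood at -0.018 ± 0.0756 in TGF_KD_CM against TGF_VEC_CM (adjusted p = 0.871) and Ppard at -0.12 ± 0.0529 (adjusted p = 0.0524), neither past the threshold, though Ppard passed there as lower under 12 alternatives.

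The carnitine shuttle brings long acyl chains into mitochondria, and all 5 of its genes fell in OE_CM, where 25.7% of all genes did. The calls of Cpt1a and Cpt2 each depended on single libraries. Together they summed to 492 ± 4.85 CPM in VEC_CM, 453 ± 3.36 in OE_CM, 509 ± 5.27 in TGF_VEC_CM and 554 ± 4.76 in TGF_KD_CM. The change was smallest in the most abundant of them, Cpt1a (NCBI gene 12894, chromosome 19 from 3322326 to 3385735 on the plus strand), the outer-membrane transferase that controls entry. Cpt1a stood at 342, 345 and 347 CPM in the 3 VEC_CM libraries, at 332, 332 and 325 in OE_CM, at 344, 354 and 357 in TGF_VEC_CM and at 405, 388 and 393 in TGF_KD_CM. Its 3 OE_CM libraries lay under the VEC_CM libraries by a few percent, 1.05-fold lower on average (-0.064 ± 0.0249 (SE), adjusted p = 0.0249), and the call was lost without replicate 2 or 3 of VEC_CM or replicate 3 of OE_CM (adjusted p = 0.0609, 0.101 and 0.127). In TGF_KD_CM it was 1.13-fold higher than in TGF_VEC_CM (0.17 ± 0.0247 (SE), adjusted p = 2.69e-08), with no overlap. TGF_VEC_CM against VEC_CM gave 0.028 ± 0.0248 (SE), adjusted p = 0.348. There Cpt1a passed as higher under scaling by library totals alone (adjusted p = 0.00918) and with limma on FPKM (0.0221 and 0.0219).

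Cpt2 (NCBI gene 12896, chromosome 4 from 107903982 to 107923589 on the minus strand) releases the acyl group again inside the inner membrane. Cpt2 stood at 39.9, 41.7 and 42.3 CPM in the 3 VEC_CM libraries, at 35.8, 33.6 and 41.4 in OE_CM, at 47.8, 44.3 and 44.3 in TGF_VEC_CM and at 46.1, 51.1 and 48.1 in TGF_KD_CM. OE_CM replicate 3 lay within the VEC_CM range and the other two were lower, and the log2 fold change of -0.16 ± 0.0561 (SE), adjusted p = 0.0117 lost its call without VEC_CM replicate 3, OE_CM replicate 1 or OE_CM replicate 2. In TGF_VEC_CM Cpt2 was higher than in VEC_CM (0.14 ± 0.0546 (SE), adjusted p = 0.0283), and this call was lost without replicate 1 or 2 of VEC_CM or replicate 1 of TGF_VEC_CM, and with no filter on low counts. Slc25a20, the translocase that carries acylcarnitines across the inner membrane, fell by 0.28 in OE_CM and rose by 0.15 in TGF_VEC_CM on the log2 scale. The rise was lost without VEC_CM replicate 1 or TGF_VEC_CM replicate 1 or 2, and with no filter on low counts. In TGF_KD_CM Slc25a20 did not pass (-0.11 ± 0.0582 (SE), adjusted p = 0.109), though it passed there as lower under 6 alternatives. Crat, which handles short chains, and Cpt1c, an isoform best known from brain, each fell by 0.30 in OE_CM and did not pass elsewhere. Both passed as higher in TGF_VEC_CM, however, with library totals alone and with limma on FPKM.

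The acyl-CoA dehydrogenases open each round, and their members divide the chain lengths between them. Their promoters are shown because the long-, medium- and very-long-chain enzymes and their coactivator moved so differently in OE_CM. The windows come from RefSeq (GRCm38.p6), 250 bases before the transcription start to 50 after it, read 5′ to 3′ on the gene's strand, with AGGTCA, the core motif bound by nuclear receptors such as PPARs, in capitals on either strand (TGACCT where it is on the other). They lie at chr3:153944594-153944893 (minus strand), chr1:66863260-66863559 (minus strand), chr11:70015379-70015678 (minus strand) and chr5:51567676-51567975 (minus strand). The window of Ppargc1a lies 548 kb inside the span RefSeq gives that gene, and its start site is 1 base from the outer end of the gene in GENCODE.
Acadm: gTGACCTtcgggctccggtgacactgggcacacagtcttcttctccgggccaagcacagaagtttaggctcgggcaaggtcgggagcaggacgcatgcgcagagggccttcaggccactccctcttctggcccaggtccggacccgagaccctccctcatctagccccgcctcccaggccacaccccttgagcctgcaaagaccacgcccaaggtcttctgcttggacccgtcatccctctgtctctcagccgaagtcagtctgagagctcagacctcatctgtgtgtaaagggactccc
Acadl: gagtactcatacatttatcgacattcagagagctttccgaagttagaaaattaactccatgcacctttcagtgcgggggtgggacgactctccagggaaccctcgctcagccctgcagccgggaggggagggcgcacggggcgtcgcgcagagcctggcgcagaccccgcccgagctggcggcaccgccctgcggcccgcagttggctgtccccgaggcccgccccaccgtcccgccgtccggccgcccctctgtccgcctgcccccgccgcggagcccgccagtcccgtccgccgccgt
Acadvl: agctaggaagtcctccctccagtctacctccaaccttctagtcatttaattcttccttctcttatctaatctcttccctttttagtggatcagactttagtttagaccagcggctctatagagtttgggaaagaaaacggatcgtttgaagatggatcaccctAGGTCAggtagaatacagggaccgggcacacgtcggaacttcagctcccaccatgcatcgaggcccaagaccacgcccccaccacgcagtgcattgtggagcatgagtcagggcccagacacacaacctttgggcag
Ppargc1a: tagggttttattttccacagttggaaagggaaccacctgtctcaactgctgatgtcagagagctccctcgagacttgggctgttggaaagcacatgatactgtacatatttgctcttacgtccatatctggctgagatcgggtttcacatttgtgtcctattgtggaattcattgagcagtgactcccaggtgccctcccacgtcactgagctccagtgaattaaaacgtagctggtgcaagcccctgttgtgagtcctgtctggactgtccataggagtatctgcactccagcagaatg

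Acadm carries 1 such motif at the outer end of its window, 249 bases before the start, and Acadvl 1 at 87 bases before it, whereas the letters are not in the windows of Acadl and Ppargc1a. A window was given for 28 of the 35 members, and 5 of the 28 (Acadm, Acadvl, Cpt1a, Cpt1c and Echs1) held it, or 17.9%, where 18.1% of 27025 genes with a window of that length did. AGGTCA repeated with 1 base between, the consensus element of PPARs with their partner RXR, was in none of the 28 and in 0.0481% of all genes, and TCAAGGTCA, the element of oestrogen-related receptors, was in none and in 0.466%. With shares this low, absence of these exact letters from 28 windows does not show that the members lack such sites. The E-box CACGTG was in none and in 8.09%. GCGCA, any base and GCGC, the core of the NRF1 element, was in 4 of 28 (Etfdh, Acad10, Etfb and Ppara), or 14.3%, and in 5.19% of all genes. Each motif was searched on both strands, and the long PPAR and oestrogen-related elements contain AGGTCA. The members' windows had a median GC content of 60.5%, against 52.7% over all windows. Hadha and Hadhb, whose products form 1 complex, start 273 bases apart on opposite strands.

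Acadm, the medium-chain dehydrogenase (NCBI gene 11364, chromosome 3 from 153922353 to 153944643 on the minus strand), fell strongly in OE_CM. Acadm stood at 104, 98.9 and 106 CPM in the 3 VEC_CM libraries, at 53.3, 51.3 and 54.6 in OE_CM, at 73.6, 75.6 and 72.4 in TGF_VEC_CM and at 79.1, 82.6 and 82.5 in TGF_KD_CM. The 4 groups did not overlap, and OE_CM was lowest. The log2 fold change was -0.96 ± 0.0393 (SE), adjusted p = 1.03e-31, or 1.94-fold lower. TGF_VEC_CM was 1.39-fold lower than VEC_CM (-0.48 ± 0.0378 (SE), adjusted p = 9.91e-18), and TGF_KD_CM was 1.10-fold higher than TGF_VEC_CM (0.14 ± 0.0383 (SE), adjusted p = 0.00196).

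Acadsb (NCBI gene 66885, chromosome 7 from 131410601 to 131446211 on the plus strand) acts on short and branched chains, including those from isoleucine. Acadsb stood at 32.6, 34.7 and 33.0 CPM in the 3 VEC_CM libraries, at 21.5, 18.5 and 19.6 in OE_CM, at 19.9, 23.4 and 24.3 in TGF_VEC_CM and at 23.7, 24.3 and 24.6 in TGF_KD_CM. Every VEC_CM library was above all others, and OE_CM and TGF_VEC_CM overlapped. It was 1.68-fold lower in OE_CM (-0.75 ± 0.0658 (SE), adjusted p = 1.01e-15) and 1.48-fold lower in TGF_VEC_CM (-0.57 ± 0.0644 (SE), adjusted p = 1.07e-11), and it did not pass in TGF_KD_CM against TGF_VEC_CM (0.10 ± 0.0661 (SE), adjusted p = 0.216).

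Acadvl, the very-long-chain enzyme (NCBI gene 11370, chromosome 11 from 70010183 to 70015428 on the minus strand), went the other way. Acadvl stood at 90.9, 94.3 and 93.7 CPM in the 3 VEC_CM libraries, at 101, 98.2 and 101 in OE_CM, at 133, 134 and 130.4 in TGF_VEC_CM and at 119, 124 and 123 in TGF_KD_CM. Both TGF-beta1 groups were above both others with no overlap, and TGF_VEC_CM was 1.42-fold higher than VEC_CM (0.51 ± 0.0325 (SE), adjusted p = 7.77e-22). TGF_KD_CM lay below TGF_VEC_CM (-0.12 ± 0.0319 (SE), adjusted p = 0.00157). The small rise in OE_CM (0.11 ± 0.0333 (SE), adjusted p = 0.00403) was lost under upper-quartile scaling (adjusted p = 0.587), with library totals alone (0.406) and with limma on FPKM. In GENCODE, 42.9% of the exon bases of Acadvl lie opposite exons of Dvl2, and without a known strand setting their reads cannot be told apart; Dvl2 moved the opposite way in all 3 comparisons, with log2 fold changes of -0.22 in OE_CM, 0.31 in TGF_KD_CM and -0.66 in TGF_VEC_CM.

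Acadl, the long-chain enzyme (NCBI gene 11363, chromosome 1 from 66830839 to 66863309 on the minus strand), lay between. Acadl stood at 143, 140.05 and 140.1 CPM in the 3 VEC_CM libraries, at 121, 124 and 128 in OE_CM, at 122, 125 and 128 in TGF_VEC_CM and at 144, 154 and 144 in TGF_KD_CM. OE_CM and TGF_VEC_CM, which overlapped each other, were below VEC_CM and TGF_KD_CM. The log2 fold changes were -0.18 ± 0.0321 in OE_CM, 0.24 ± 0.0318 in TGF_KD_CM and -0.17 ± 0.0319 in TGF_VEC_CM, all past the threshold (adjusted p = 1.43e-06, 4.59e-09 and 3.09e-06). The short-chain enzyme Acads fell by 0.22 in OE_CM and passed nowhere else. Acad9, which also serves in assembly of respiratory complex I, rose by 0.19 in OE_CM, a call lost under upper-quartile scaling (adjusted p = 0.0761). Acad11 fell by 0.25 in OE_CM and rose by 0.19 in TGF_KD_CM, the former lost without VEC_CM replicate 3 or OE_CM replicate 1 and the latter without any 1 of 5 libraries. The rise was also lost in DESeq2 (adjusted p = 0.0616), under upper-quartile scaling, with library totals alone and with limma on FPKM. Acad10 passed in no comparison, at -0.23 ± 0.102 in OE_CM (adjusted p = 0.0521), though it passed there under 8 alternatives.

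**Figure D2:**
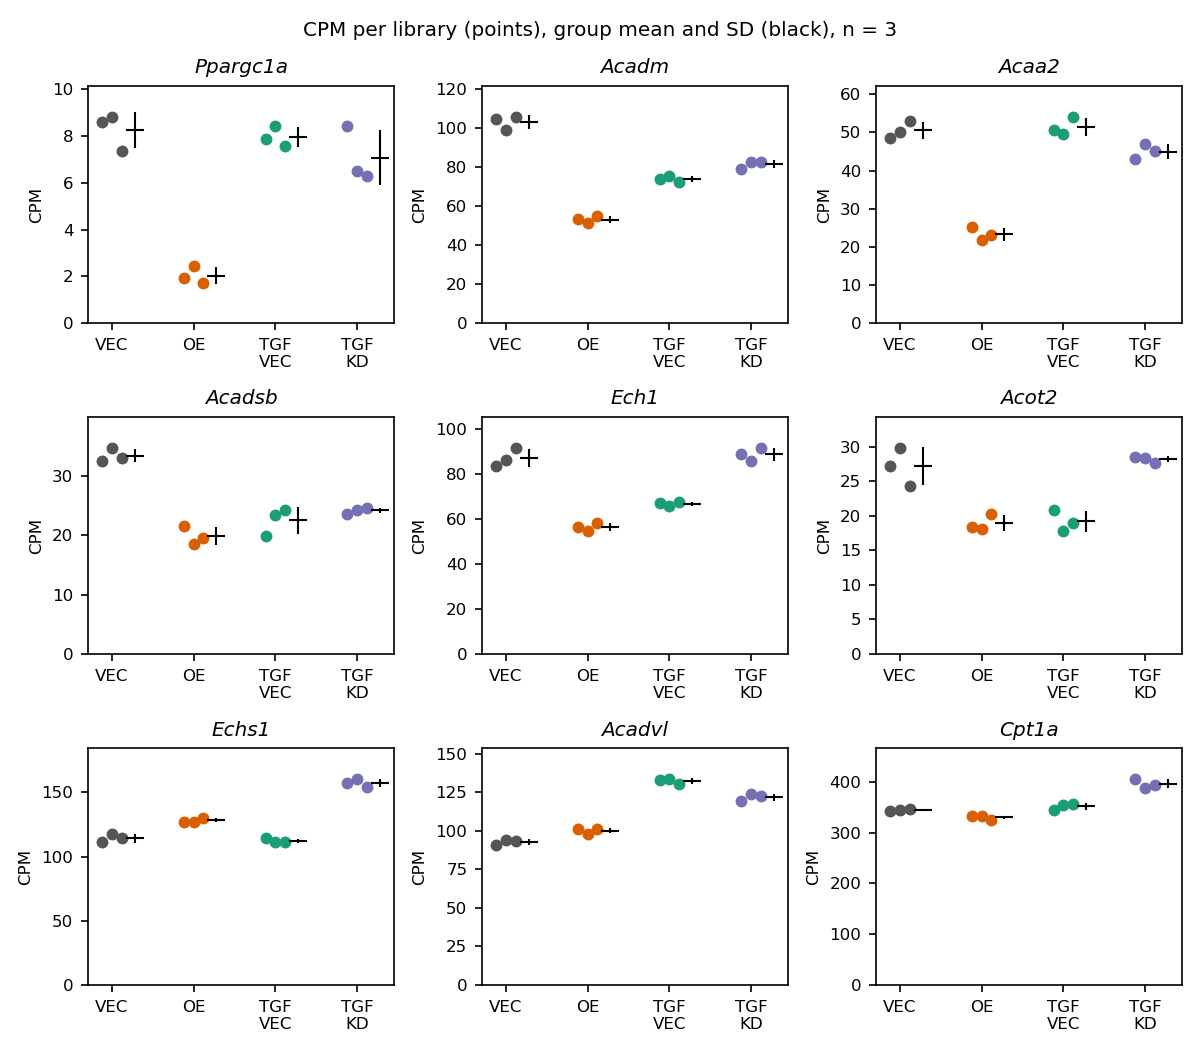
CPM of 9 genes in each of the 12 libraries (points, by group), with group mean and SD (black) and axes from 0. Ppargc1a, Acadm and Acaa2 are lowest in OE_CM without overlap with any other group, Acadvl is highest with TGF-beta1, and Echs1 and Cpt1a are highest in TGF_KD_CM.

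The following steps of the mitochondrial spiral did not move as one. Acaa2, the thiolase that closes the round for medium and long chains, fell strongly. Acaa2 stood at 48.5, 50.1 and 53.0 CPM in the 3 VEC_CM libraries, at 25.2, 21.8 and 23.0 in OE_CM, at 50.6, 49.7 and 54.1 in TGF_VEC_CM and at 43.0, 46.9 and 45.1 in TGF_KD_CM. The OE_CM libraries lay far below all others, 2.16-fold lower than VEC_CM (-1.11 ± 0.0549 (SE), adjusted p = 1.72e-27). TGF_VEC_CM and VEC_CM overlapped (0.026 ± 0.0503 (SE), adjusted p = 0.677), and TGF_KD_CM was slightly below TGF_VEC_CM (-0.19 ± 0.0507 (SE), adjusted p = 0.00121), so Acaa2 fell in both media with an altered microRNA.

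Echs1, which hydrates short enoyl chains (NCBI gene 93747, chromosome 7 from 140105710 to 140116421 on the minus strand), rose in both. Echs1 stood at 111, 117 and 114 CPM in the 3 VEC_CM libraries, at 127, 127 and 129.9 in OE_CM, at 114, 111 and 111 in TGF_VEC_CM and at 158, 160.4 and 154 in TGF_KD_CM. The TGF_KD_CM libraries stood above all others and VEC_CM and TGF_VEC_CM overlapped. The rise was 1.40-fold in TGF_KD_CM (0.49 ± 0.0312 (SE), adjusted p = 1.66e-21) and 1.12-fold in OE_CM (0.17 ± 0.0317 (SE), adjusted p = 7.81e-06), and TGF_VEC_CM against VEC_CM gave -0.027 ± 0.0318 (SE), adjusted p = 0.479. Its exons share 1.71% of their bases with Paox on the other strand, which had 2919 counts against 55173 and a log2 fold change of 0.51 in TGF_KD_CM.

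Hadh, the dehydrogenase for medium and short hydroxyacyl chains, was at 95.2 ± 2.24 CPM in VEC_CM, 70.6 ± 1.47 in OE_CM, 104 ± 6.30 in TGF_VEC_CM and 92.6 ± 3.30 in TGF_KD_CM (mean ± SD, n = 3). It fell by 0.43 in OE_CM and by 0.16 in TGF_KD_CM and rose by 0.12 in TGF_VEC_CM on the log2 scale, the rise being lost without TGF_VEC_CM replicate 1 (adjusted p = 0.0709). Acat1, the thiolase of acetoacetyl-CoA, had the same signs, -0.18 ± 0.0319, -0.17 ± 0.0314 and 0.11 ± 0.0314. The subunits of the trifunctional protein hardly moved: Hadha fell by 0.10 in OE_CM and by 0.13 in TGF_VEC_CM, and Hadhb passed in none of the 3 comparisons, with values of 0.011 ± 0.0405, -0.051 ± 0.0404 and -0.03 ± 0.0403 in OE_CM, TGF_KD_CM and TGF_VEC_CM.

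The enzymes for unsaturated chains, which shift double bonds into place, were led by Ech1 (NCBI gene 51798, chromosome 7 from 28825338 to 28832239 on the plus strand), the dienoyl-CoA isomerase. Ech1 stood at 83.6, 86.1 and 91.3 CPM in the 3 VEC_CM libraries, at 56.4, 54.7 and 58.0 in OE_CM, at 66.9, 65.5 and 67.3 in TGF_VEC_CM and at 88.7, 85.7 and 91.5 in TGF_KD_CM. VEC_CM and TGF_KD_CM overlapped and the other groups were each lower, OE_CM lowest. It was 1.55-fold lower in OE_CM (-0.63 ± 0.0403 (SE), adjusted p = 8.52e-22), 1.31-fold lower in TGF_VEC_CM (-0.39 ± 0.0394 (SE), adjusted p = 2.88e-13) and 1.33-fold higher in TGF_KD_CM than in TGF_VEC_CM (0.41 ± 0.0393 (SE), adjusted p = 5.47e-14).

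The enoyl-CoA isomerases Eci1 and Eci2 both fell in TGF_VEC_CM, by 0.30 and 0.33 on the log2 scale, and both rose in TGF_KD_CM, by 0.19 and 0.14. In OE_CM Eci2 fell by 0.26 while Eci1 gave -0.0068 ± 0.0632 with overlapping groups. The rises in TGF_KD_CM were the weaker calls: that of Eci1 was lost without replicate 2 or 3 of TGF_VEC_CM or replicate 1 of TGF_KD_CM, and that of Eci2 without replicate 2 of TGF_VEC_CM or replicate 2 or 3 of TGF_KD_CM. The 3 tested genes of the role, with Decr1, summed to 193 ± 5.0 CPM in VEC_CM, 149 ± 0.561 in OE_CM, 151 ± 4.51 in TGF_VEC_CM and 183 ± 4.92 in TGF_KD_CM.

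The electron transfer flavoprotein takes up the electrons of the dehydrogenases, and its subunits Etfa and Etfb fell together in OE_CM, by 0.26 and 0.29 on the log2 scale. In GENCODE, 53.0% of the exon bases of Etfb are shared with Gm45233 on the same strand, a gene without its own row of counts. Etfa was at 119.8 ± 6.03 CPM in VEC_CM, 99.9 ± 2.92 in OE_CM, 124 ± 1.24 in TGF_VEC_CM and 116 ± 5.27 in TGF_KD_CM, and Etfb at 84.6 ± 0.806 CPM in VEC_CM, 69.2 ± 3.43 in OE_CM, 76.3 ± 2.10 in TGF_VEC_CM and 78.7 ± 1.06 in TGF_KD_CM. Etfdh, the oxidoreductase that passes the electrons to ubiquinone, did not pass in OE_CM (-0.078 ± 0.0471 (SE), adjusted p = 0.16) and rose in TGF_VEC_CM (0.27 ± 0.0459 (SE), adjusted p = 8.18e-07), where Etfb fell (-0.15 ± 0.0383 (SE), adjusted p = 0.000629) and Etfa gave 0.05 ± 0.0347 (SE), adjusted p = 0.216. In TGF_KD_CM Etfa and Etfdh fell by 0.093 and 0.12, calls that were lost with no filter on low counts (adjusted p = 0.054 and 0.0638) and without TGF_KD_CM replicate 1 (0.103 and 0.0671). That of Etfdh was also lost without TGF_VEC_CM replicate 2 or TGF_KD_CM replicate 3.

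Of the peroxisomal enzymes, Acaa1a (NCBI gene 113868, chromosome 9 from 119341028 to 119350296 on the plus strand), a thiolase, moved in all 3 comparisons. Acaa1a stood at 25.1, 24.1 and 26.9 CPM in the 3 VEC_CM libraries, at 20.1, 19.2 and 22.2 in OE_CM, at 27.1, 31.8 and 28.2 in TGF_VEC_CM and at 33.1, 37.8 and 33.9 in TGF_KD_CM. OE_CM was below VEC_CM and TGF_KD_CM above TGF_VEC_CM without overlap. The log2 fold changes were -0.31 ± 0.0675, 0.27 ± 0.0628 and 0.20 ± 0.0646 in OE_CM, TGF_KD_CM and TGF_VEC_CM (adjusted p = 8.72e-05, 0.000327 and 0.00749), the last lost without replicate 2 of VEC_CM or of TGF_VEC_CM (adjusted p = 0.0587 and 0.0928). Its counts are uncertain because of the near copy Acaa1b, with a mean of 1.47 CPM in VEC_CM, and of Myd88, whose exons lie opposite 6.57% of its exon bases. Myd88 had 26550 counts against 11910 and rose by 0.24 in OE_CM and 0.49 in TGF_KD_CM and fell by 0.16 in TGF_VEC_CM.

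Ehhadh, the L-bifunctional enzyme (NCBI gene 74147, chromosome 16 from 21761285 to 21787834 on the minus strand), was barely expressed. Ehhadh stood at 1.88, 1.34 and 1.83 CPM in the 3 VEC_CM libraries, at 0.762, 0.598 and 0.939 in OE_CM, at 1.66, 0.812 and 1.11 in TGF_VEC_CM and at 1.41, 1.55 and 1.31 in TGF_KD_CM. All OE_CM libraries except replicate 3 lay below every library of the other groups, and TGF_VEC_CM ranged most widely. It was 2.20-fold lower in OE_CM, with a wide error (-1.13 ± 0.301 (SE), adjusted p = 0.000984). In TGF_VEC_CM against VEC_CM its log2 fold change was -0.50 ± 0.283 (SE), adjusted p = 0.127, and without TGF_VEC_CM replicate 1 it passed at -0.79 (adjusted p = 0.0319). TGF_KD_CM against TGF_VEC_CM gave 0.26 ± 0.286 (SE), adjusted p = 0.502.

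Acox3 (NCBI gene 80911, chromosome 5 from 35582981 to 35614208 on the plus strand), an oxidase for branched chains, had small changes. Acox3 stood at 30.8, 28.4 and 30.9 CPM in the 3 VEC_CM libraries, at 28.1, 25.1 and 27.0 in OE_CM, at 27.9, 26.4 and 29.7 in TGF_VEC_CM and at 32.4, 32.5 and 34.6 in TGF_KD_CM. TGF_KD_CM stood above TGF_VEC_CM in every library (0.24 ± 0.0588 (SE), adjusted p = 0.000428) and OE_CM below VEC_CM (-0.17 ± 0.0601 (SE), adjusted p = 0.0137), the latter lost without VEC_CM replicate 3 or OE_CM replicate 2. TGF_VEC_CM against VEC_CM gave -0.10 ± 0.0594 (SE), adjusted p = 0.132. Hsd17b4, the D-bifunctional enzyme, passed in no comparison at 88.2 ± 1.40 CPM in VEC_CM, 84.9 ± 2.35 in OE_CM, 83.8 ± 2.65 in TGF_VEC_CM and 81.3 ± 4.20 in TGF_KD_CM.

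Acot2 (NCBI gene 171210, chromosome 12 from 83987861 to 83993877 on the plus strand), a thioesterase that frees fatty acids from CoA in the mitochondrial matrix, had the largest rise of any member in TGF_KD_CM. Acot2 stood at 27.3, 29.8 and 24.4 CPM in the 3 VEC_CM libraries, at 18.5, 18.1 and 20.2 in OE_CM, at 20.9, 17.8 and 19.0 in TGF_VEC_CM and at 28.5, 28.4 and 27.7 in TGF_KD_CM. OE_CM and TGF_VEC_CM overlapped at the low end and VEC_CM and TGF_KD_CM at the high end. It was 1.44-fold lower in OE_CM (-0.52 ± 0.0693 (SE), adjusted p = 1.64e-09), 1.41-fold lower in TGF_VEC_CM (-0.50 ± 0.0686 (SE), adjusted p = 4.02e-09) and 1.47-fold higher in TGF_KD_CM than in TGF_VEC_CM (0.55 ± 0.0683 (SE), adjusted p = 3.48e-10). Its cytosolic near copy Acot1 was at 0.774 ± 0.375 CPM in VEC_CM, 0.678 ± 0.236 in OE_CM, 2.60 ± 0.136 in TGF_VEC_CM and 1.60 ± 0.312 in TGF_KD_CM and moved the opposite way with TGF-beta1, 1.74 ± 0.285 in TGF_VEC_CM and -0.69 ± 0.262 in TGF_KD_CM. How the counting divided reads between the copies is not given in the sources used here.

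**Figure D3:**
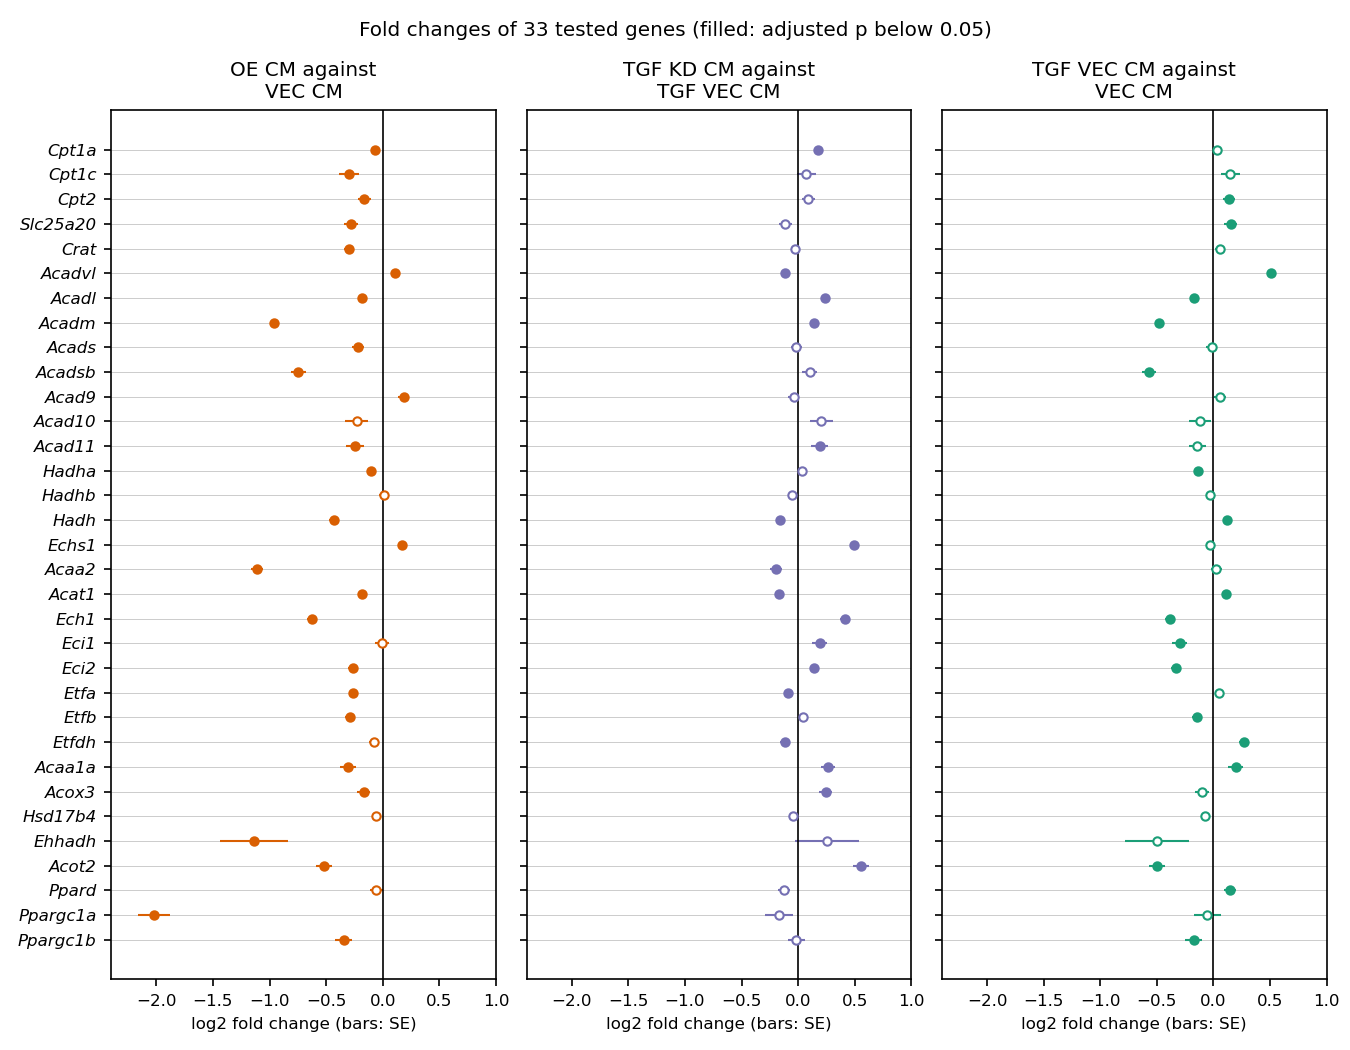
Log2 fold change (points) and SE (bars) of the 33 tested genes in OE_CM against VEC_CM, TGF_KD_CM against TGF_VEC_CM and TGF_VEC_CM against VEC_CM, with filled points for an adjusted p below 0.05. In OE_CM 24 filled points lie below 0 and 3 above; in TGF_KD_CM 11 lie above and 6 below; in TGF_VEC_CM 8 lie above and 10 below.

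The effects of overexpression and inhibition were measured on separate libraries, so they can be set against each other. Of the 24 members lower in OE_CM, 9 (37.5%) were higher in TGF_KD_CM: Cpt1a, Acadl, Acadm, Acad11, Ech1, Eci2, Acaa1a, Acox3 and Acot2. A further 4 (16.7%), Acaa2, Acat1, Etfa and Hadh, were lower in both, and 11 did not pass in TGF_KD_CM. Of all other genes lower in OE_CM, 33.8% were higher and 18.1% lower in TGF_KD_CM. Some of these member calls were lost under alternatives. In TGF_KD_CM those of Acad11, Eci2 and Etfa were lost under 10, 5 and 2 of 16. In OE_CM those of Cpt1a, Acox3 and Acad11 were lost under 3, 2 and 2 of 16. Across the 33 genes the log2 fold changes had r = 0.08 and Spearman's rho = -0.07, of opposite sign, and over the 14367 other genes r = -0.06 and rho = -0.09, given as a description over genes that are not independent replicates, and the largest fall, Ppargc1a, had no called counterpart.

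The difference between the OE_CM effect and the TGF_KD_CM effect was tested in the same model. The OE_CM effect was the lower for 24 members and the higher for 2 (Acad9 and Acadvl), and 7 did not pass, where 26.8% of all genes had the lower and 25.6% the higher OE_CM effect. The largest differences were -1.85 ± 0.191 for Ppargc1a, -1.39 ± 0.415 for Ehhadh, -1.10 ± 0.0549 for Acadm, -1.08 ± 0.0973 for Acot2 and -1.04 ± 0.0563 for Ech1 on the log2 scale (adjusted p = 4.68e-13, 0.00353, 4.17e-27, 3.16e-15 and 2.22e-25). The TGF-beta1 present only in the inhibition comparison cannot be told apart from the medium in this difference.

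**Figure D4:**
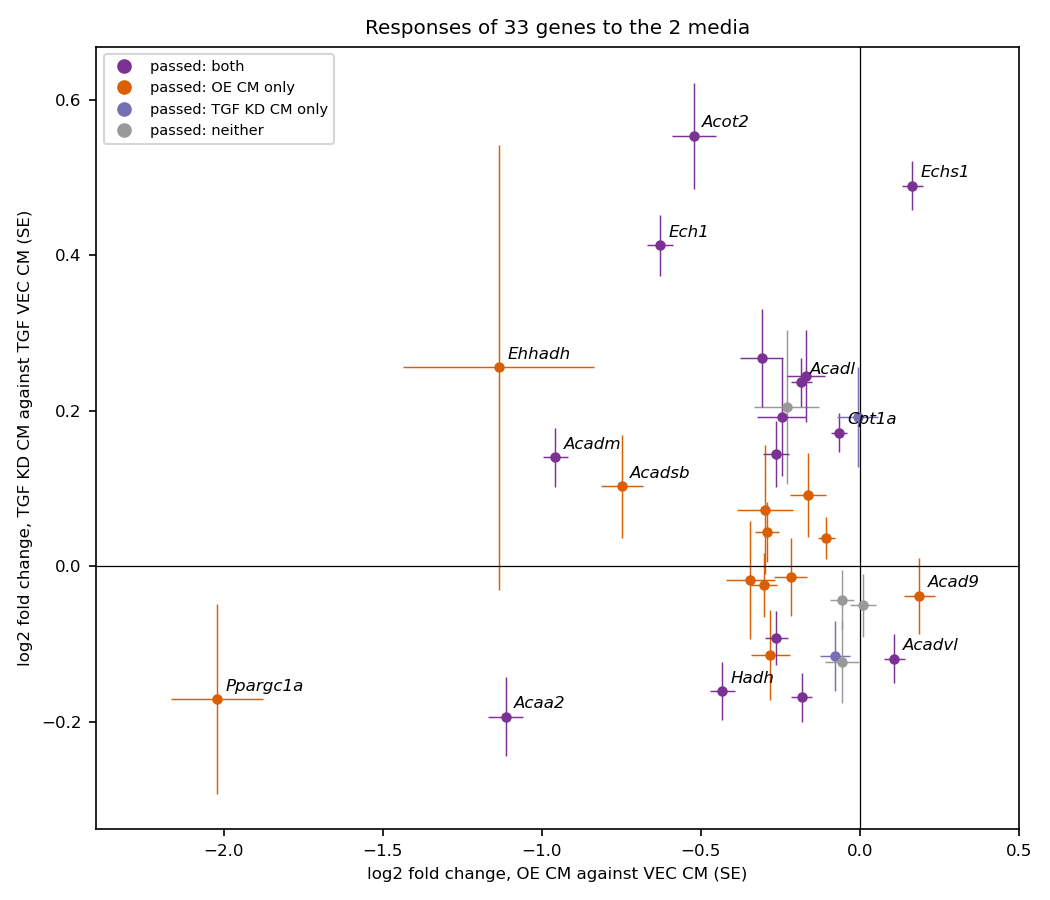
Log2 fold change of the 33 genes in OE_CM against VEC_CM (horizontal) and in TGF_KD_CM against TGF_VEC_CM (vertical), each with its SE, coloured by which comparison passed an adjusted p below 0.05. Of the genes lower in OE_CM, 9 lie in the upper left as higher in TGF_KD_CM and 4 in the lower left as lower in both.

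Other genes of the pathway, from lists that did not include the members, were read in the same fit. Of 50 tested genes for activation and entry, peroxisomal oxidation, further mitochondrial steps, PPAR-driven switches and partners of the regulators, 25 fell and 8 rose in OE_CM, 5 fell and 19 rose in TGF_KD_CM, and 18 fell and 9 rose in TGF_VEC_CM. Of all genes, 25.7% fell and 28.4% rose in OE_CM, 20.2% and 23.0% in TGF_KD_CM, and 29.4% and 28.9% in TGF_VEC_CM. Under upper-quartile scaling 28 of the 50 fell and 5 rose in OE_CM, where 5059 of all 14400 genes fell and 2798 rose. With TMM the median of the 50 in OE_CM was -0.19, against -0.01 over all genes. The peroxisomal list had 10 of 14 lower in OE_CM and 1 higher (Pecr, a call lost under upper-quartile scaling). Acox2, the oxidase of bile acid intermediates and branched chains, fell by 1.99, Hacl1, of alpha oxidation, by 0.81, Crot by 0.54 and Pex11a by 0.52. In TGF_KD_CM 5 of the 14 rose, with Phyh at 0.38 and Pex11a at 0.29, and 1 fell. In TGF_VEC_CM 4 fell and none rose, where 29.4% of all genes fell.

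In the list of further mitochondrial enzymes, 6 of 13 fell in OE_CM and none rose, where 25.7% and 28.4% of all genes did. These included genes of branched-chain amino acid and propionyl-CoA breakdown: Ivd, the isovaleryl-CoA dehydrogenase, fell by 1.25, Mcee by 0.75 and Pccb by 0.39, and Oxct1, of ketone body use, by 0.63. In TGF_VEC_CM 6 of the 13 fell, Ivd by 1.00, and 2 rose, Acot1 by 1.74 and Acot13 by 0.11, beside 29.4% and 28.9% of all genes. In TGF_KD_CM 5 rose, Ivd by 0.34 and Pccb by 0.29, and Acot1 fell by 0.69, beside 23.0% and 20.2% of all genes. Of the PPAR-driven switches, Pdk4, the kinase that turns pyruvate away from oxidation, fell by 0.66 in OE_CM and rose by 1.10 in TGF_VEC_CM. Angptl4, a secreted lipase inhibitor, fell by 0.57 in OE_CM and rose by 0.28 in TGF_KD_CM. The change of largest size in that list there was in Ucp3, an uncoupling protein at low counts, which rose by 1.43 from 0.446 ± 0.130 to 1.21 ± 0.398 CPM.

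At the entry to the pathway, the acyl-CoA synthetases Acsl3 and Acsl5 rose in OE_CM, by 0.26 and 0.19. In TGF_VEC_CM Acsl3, Acsl5 and Acsl1 fell, by 1.09, 0.87 and 0.61, while Acsl6 was called higher at a very low level, with 0 to 0.0546 CPM in VEC_CM, under the floor, and 0.271 to 0.506 in TGF_VEC_CM. Malonyl-CoA inhibits Cpt1, and in OE_CM Acacb, which makes it, fell by 1.37 and Mlycd, which removes it, by 1.14. Acaca, which also makes it, rose by 0.13 (143 ± 4.63 to 157 ± 6.21 CPM), a call lost under upper-quartile scaling, with library totals alone and with limma. The muscle isoform Cpt1b was scarce, at 0.582 ± 0.231 CPM in VEC_CM, and passed in no comparison. Of 8 partners of the regulators 3 rose and 3 fell in OE_CM, where 28.4% of all genes rose and 25.7% fell. The retinoid X receptors Rxra and Rxrb, partners of the PPARs, rose by 0.40 and 0.36, and Nrip1, a corepressor, by 0.38. Lpin1, a coactivator of PGC-1alpha, fell by 1.10 in OE_CM and 1.22 in TGF_VEC_CM, and Esrra, the oestrogen-related receptor alpha, gave -0.013 ± 0.0584 in OE_CM (adjusted p = 0.874). Pparg, named in the series title, was at 124 ± 3.25 CPM in VEC_CM, 125 ± 3.17 in OE_CM, 91.2 ± 2.53 in TGF_VEC_CM and 105 ± 2.76 in TGF_KD_CM and did not pass in OE_CM (0.0084 ± 0.0332 (SE), adjusted p = 0.853), though it was called lower under upper-quartile scaling (adjusted p = 0.0401), and it fell by 0.44 in TGF_VEC_CM and rose by 0.20 in TGF_KD_CM.

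Genes of general mitochondrial content were read beside the oxidation genes, and the difference between the lists was not tested. Of 12 such genes, 5 rose and 2 fell in OE_CM, where 28.4% of all genes rose and 25.7% fell, with Idh3a at 0.53 ± 0.0299, Timm23 at 0.44 ± 0.0895, Hspd1 at 0.42 ± 0.0222 and Tomm20 at 0.34 ± 0.0296, and their median was 0.07. Under upper-quartile scaling 4 rose and 5 fell there, beside 2798 and 5059 of all 14400 genes. In TGF_KD_CM 8 fell and none rose, beside 20.2% and 23.0% of all genes, and in TGF_VEC_CM 7 rose and none fell, beside 28.9% and 29.4%. The median of the 33 oxidation genes was -0.25, 0.04 and -0.03 in those comparisons.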

How the data were processed

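Read counts of 12 libraries, 3 in each of 4 groups taken from the sample titles, were analysed. The deposited table holds whole-number counts per gene symbol with no normalization, and the authors' FPKM table divides each count by the column total and 1 length per gene, which was checked over 22503 genes to within 0.0004%. The build was GRCm38, also called mm10, as the submitters' processing notes have it. The sources used here do not give the aligner, counter, strandedness or annotation. Libraries were prepared from 1.3 µg of RNA with a SMARTER kit after culture in 10% serum, per the labels' protocols.

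Genes were filtered with filterByExpr (edgeR 4.0.16, R 4.3.3), which kept 14400 of 24619, and scaled by TMM. All 12 libraries entered 1 robust quasi-likelihood fit with a mean per group, to share 1 estimate of the spread (common biological coefficient of variation 0.0341). Two-sided p-values were adjusted by Benjamini-Hochberg over the 14400 genes and called below 0.05, and a second rule asked for at least 1.5-fold. The fit was tested on simulated data. Library totals were 33379207 to 37226153 counts; floors of 3 counts cover counting error only. Within groups, replicate pairs had r of 0.992 to 0.994 across genes, and the chi-square per gene was 2.96 to 4.41, so no pair agreed within sampling noise.

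Positions and promoter windows come from RefSeq tables of GRCm38, in which all 35 members were found, and exon overlaps and transcript lengths from GENCODE vM21. Alternatives were DESeq2 1.42.0, other size factors, filters of low counts, a replicate block, the compared groups alone, limma 3.58.1 on log2 FPKM plus 1 or 0.1 (genes above 0.5 FPKM), and leaving out each library. The members and lists were chosen with earlier results of these data known. Values in every library are given for the 5 members of largest change past the threshold in each comparison and for Ppara, Ppard, Ppargc1a, Ppargc1b, Cpt1a and Cpt2; of each other list at most 4 genes of largest change are named per comparison, plus Cpt1b, Acaa1b and Acot1; some genes in that rule are not reported here. Acadl, the long-chain partner of Acadm and Acadvl, and Pparg, Esrra, Acaca and Cidec were added after their values were seen. Mut, Tcf21, Myl7 and Nppa from the lists were not among the symbols used.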

Additional observations from a re-analysis of the deposited data

How the results depend on the processing

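Over 16 alternatives a comparison, 23 of 33 members kept their call or lack of one in OE_CM against VEC_CM, 25 in TGF_KD_CM against TGF_VEC_CM and 20 in TGF_VEC_CM against VEC_CM, and 28 did over 21 alternatives for the OE_CM effect minus the TGF_KD_CM effect. No called member changed sign. The 3 members higher in OE_CM became 1 under upper-quartile scaling and 1 with limma on log2(FPKM + 1) or log2(FPKM + 0.1), and the 2 with the higher OE_CM effect became 1 under both limma settings. In TGF_VEC_CM the number of members higher ranged from 5 to 8 with a library left out, against 8 with all; it was 5 without VEC_CM replicate 1, TGF_VEC_CM replicate 1 or TGF_VEC_CM replicate 2. Over all genes in OE_CM, 2936 were higher and 4840 lower with library totals alone and 2744 and 4314 with limma on log2(FPKM + 1), against 4083 and 3695. No scaling moved the median of all genes by more than 0.087. The cause of these shifts was not tested.

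Same-numbered libraries were only weakly alike: their deviations from the group mean correlated between 0.0003 and 0.044, all positive. For 4 of 12 libraries, the best correlation in every other group was with the library of the same number. Whether the numbers mark a pairing was not tested. With the replicate block, 3 members were higher and 24 lower in OE_CM, 11 and 7 in TGF_KD_CM, and 8 and 10 in TGF_VEC_CM; Ppard, called lower in TGF_KD_CM (adjusted p = 0.0437), was the 1 changed call. Depth limits Ehhadh, with 550 counts in all, and leaves Decr1 and Ppara untested.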

Other observations

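Over the 3 comparisons that share groups, 9 of the 33 tested members passed in each (Acaa1a, Acadl, Acadm, Acadvl, Acat1, Acot2, Ech1, Eci2 and Hadh) and 3 in none (Acad10, Hadhb and Hsd17b4), where 23.2% of the 14400 genes passed in each and 20.9% in none. The median over members of the largest within-group coefficient of variation was 6.43%, and it was highest for Ehhadh (35.9%) and Ppargc1a (17.6%). Hadha had 7.27 to 8.82 FPKM for each of its partner Hadhb across the 12 libraries. Etfa had 0.127 to 0.155 for each of its partner Etfb, with 0.149 to 0.155 in TGF_VEC_CM, above every other library. The scale of both ratios rests on the lengths behind the FPKM. For the enzymes on either side of the carnitine shuttle, Cpt1a to Cpt2, the ratio ran from 3.35 to 4.60. All 31 enzymes together took 0.209% to 0.249% of the scaled counts of a library.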
